A study of Homo sapiens with 4 samples.

Results

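The AP-1 transcription factor family was examined through 7 of its genes, JUN, JUNB, JUND, FOS, FOSL1, FOSL2 and ATF3, in lists of m6A-enriched intervals from smoke-exposed airway cells. The members were the deposited intervals that overlapped fixed hg19 windows of 3 to 57 kb around these genes on the strand of the gene. That gave 4 of 13691 intervals in METTL3 knockdown cells exposed to cigarette smoke extract (CSE) and 6 of 11038 intervals in cells exposed to CSE alone. N6-methyladenosine (m6A) was mapped by MeRIP-seq, in which an m6A antibody pulls down poly(A) RNA that is then sequenced next to input RNA. The first group were 16-HBE cells, an established human bronchial epithelial line, with siRNA against METTL3, the catalytic subunit of the m6A writer, and 5% CSE for 24 h. The second were 16-HBE cells labelled WT with the same 5% CSE for 24 h. Both groups were thus exposed to smoke extract. No control siRNA is named for the second, so transfection cannot be told apart from METTL3 reduction. Each condition had 1 IP and 1 input library in the labels and 1 interval list, so there was no replicate spread and no test between conditions.

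AP-1 is a dimer of basic leucine zipper proteins. JUN proteins pair with each other or with FOS proteins, whereas FOS proteins need a JUN partner, and ATF3 is a stress-induced relative that pairs with JUN proteins. The genes are known for fast and short-lived transcription after growth factors and stress, and m6A is known as a mark that shortens the life of many mRNAs, often placed at GGAC motifs near the stop codon.

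The 6 m6A intervals fell on 6 of the 7 genes, 1 to each. With METTL3 knockdown 4 genes were listed, JUN, JUNB, JUND and FOSL2, and in CSE these 4 and also FOS and ATF3 were listed. FOSL1 was in neither list. All 4 intervals listed with knockdown had identical borders in CSE. Over the whole knockdown list 64.5% of intervals overlapped the CSE list by at least 1 bp. The share with identical borders over the whole lists is not given here, so identical borders do not set these genes apart. The covered length was 7354 nt with knockdown and 10538 nt in CSE, and the difference was the FOS and the ATF3 interval.

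The sequences that follow show the m6A core motif beside the stop codon, and the 1 exon that had exactly the length of an interval. They were read from GENCODE 29 transcripts (GRCh38), the longest protein-coding one of each gene, since no hg19 sequence was used here. Capitals mark the motif, and letters are DNA letters of the sense strand, 5′ to 3′. In 5 of the 7 genes a GGACT stood within 200 nt after the stop codon. The first such site of each is given, and for ATF3 the coding site that starts 62 nt before the first base of its stop codon.
JUN: tatccaagttGGACTgggttgcgtc
JUNB: aaaccacactGGACTccggccctcc
JUND: tgggcgccccGGACTtggagagggt
FOS: tgggcctcaaGGACTtgaaagcatc
FOSL2: gacccaggtgGGACTtagcagtgag
ATF3: cagaatgggaGGACTccagaagatg
Counted from the last base of the stop codon, these sites started 132 nt (JUN), 124 nt (JUNB), 74 nt (JUND), 154 nt (FOS) and 146 nt (FOSL2) into the 3′ UTR. JUN, JUND and FOS had a further GGACT at 179, 178 and 176 nt. Of 16440 protein-coding genes with a complete coding sequence and a 3′ UTR of at least 200 nt, 20.9% had a GGACT in that stretch. The length of the stretch was chosen after the sites of these genes were seen. The count of genes beside this share is therefore a description, and enrichment was not tested. FOSL1 had no GGACT in its 1669 nt transcript, whereas 88.8% of 19702 protein-coding genes had at least 1. Exon 2 of FOSL2, equal in length to the interval of both lists, had 0 GGACT as well, but it had 2 GGAC. The whole FOSL2 transcript had 7 GGACT. The exon was matched to the interval by length alone, so whether GGACT follows the intervals was not tested.

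The FOSL2 interval had the length of exon 2 of FOSL2, a wholly coding exon of 252 nt, and exon 2 of FOS has the same length. Both are printed to compare the exon that equals the FOSL2 interval in length with its counterpart in FOS, whose 1452 nt interval is far longer (exon borders of the longest transcripts).
FOSL2 exon 2: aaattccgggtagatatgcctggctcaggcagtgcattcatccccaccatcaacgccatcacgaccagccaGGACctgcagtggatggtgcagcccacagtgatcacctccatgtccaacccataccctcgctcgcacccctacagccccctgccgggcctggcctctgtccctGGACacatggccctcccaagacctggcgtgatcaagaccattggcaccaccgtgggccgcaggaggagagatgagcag
FOS exon 2: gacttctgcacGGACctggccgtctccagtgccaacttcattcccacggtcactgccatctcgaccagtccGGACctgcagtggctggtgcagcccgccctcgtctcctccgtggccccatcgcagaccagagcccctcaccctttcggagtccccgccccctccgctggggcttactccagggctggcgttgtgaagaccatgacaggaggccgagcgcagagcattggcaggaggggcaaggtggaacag
Each holds 2 GGAC motifs, and they are identical at 131 of 252 positions, or 52.0%, without gaps. One GGAC starts at base 72 of both exons. Of 5573 internal coding exons of 227 to 277 nt, 67.2% held at least 1 GGAC and 33.8% held 2 or more.

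The JUN family was listed whole in both conditions. JUN, the founding member of the family, had an interval of 3323 nt at chr1:59246463-59249785 (hg19, minus strand). Its score, the authors' own value for each listed interval, was 3100 in the knockdown list and 3100 in the CSE list. The scale of the score is not stated, and values pile up at 3100, which 1113 intervals shared in the knockdown list and 620 in the CSE list. Only 57 scores of the knockdown list and 40 of the CSE list were higher.

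JUNB, a weaker activator that can hold JUN back, had an interval of 1816 nt at chr19:12902310-12904125 (plus strand). Its score was 2094.48 in the knockdown list, above 87.6% of that list, and 3100 in the CSE list, above 94.0% of that list. It was the only JUN gene below the pile-up in either list. JUND, the member known for steady expression in resting cells, had an interval of 1963 nt at chr19:18390504-18392466 (minus strand), and it scored 3100 in both lists. Scores of separate lists are not on a shown common scale, so they are given as ranks within a list and not as changes.

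In the FOS family the genes differed. FOS, the classical immediate early gene, had no interval in its window in the knockdown list. In the CSE list it had 1 interval of 1452 nt at chr14:75747486-75748937 (plus strand), which scored 1694.09, above 89.2% of the list. FOSL2, which encodes FRA2, had an interval of 252 nt at chr2:28626974-28627225 (plus strand). Its score was 1586.66 in the knockdown list and 1073.94 in the CSE list, above 84.5% and 83.8% of these lists. FOSL1, which encodes FRA1, a prominent AP-1 subunit of epithelial cells, had none in either list within its 10 kb window.

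ATF3 had no interval in its 57 kb window in the knockdown list. In the CSE list it had 1 interval of 1732 nt at chr1:212792388-212794119 (plus strand), which scored 775.35, above 78.8% of the list. It was the lowest score among the 6 AP-1 intervals of the CSE list.

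**Figure D1:**
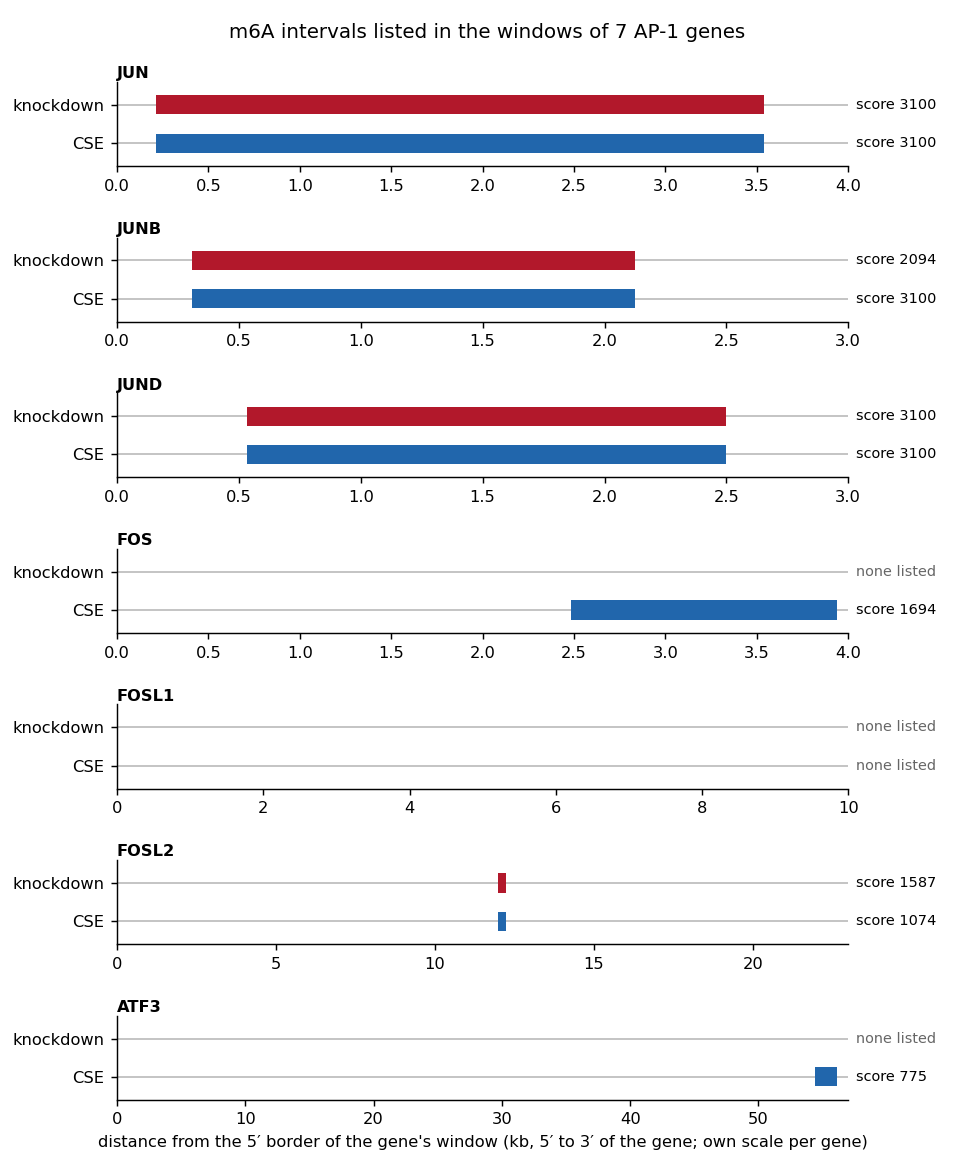
Intervals listed in the window of each gene, drawn 5′ to 3′ of the gene in kb from the 5′ border of the window, with the METTL3 knockdown list above the CSE list and the score at the right. The 4 genes with an interval in the knockdown list show the same borders in CSE, FOS and ATF3 have an interval only in the CSE list, and FOSL1 has none.

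The count of CSE-only genes was set beside the whole lists. An interval is called CSE-only or knockdown-only when no interval of the other list shares at least 1 bp with it on the same strand. With knockdown, 0 of the 4 AP-1 intervals were knockdown-only, which allows a share of up to 75.0%, beside 35.5% of all 13691 intervals. In CSE, 2 of the 6 AP-1 intervals were CSE-only, a share of 33.3% (exact 95% interval 4.33 to 77.7), beside 19.9% of all 11038 intervals. Both shares of the whole lists lie within what these small counts allow, so the family as a group was not distinguishable from its background. The intervals cover counting error only.

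FOS and ATF3 stood high among the CSE-only intervals. The 2200 CSE-only intervals had a median score of 108.65 and a median width of 361.5 nt. FOS scored above 96.7% of them, with 71 higher, and was wider than 85.1%. ATF3 scored above 93.2% of them, with 149 higher, and was wider than 88.8%. Intervals of the CSE list with such scores mostly had a counterpart. Of the 1192 intervals that scored at least as high as FOS, 1120 overlapped the knockdown list, or 94.0%, and FOS is 1 of the 72 that did not. Of the 2344 that scored at least as high as ATF3, 2194 overlapped it, or 93.6%. Among those over 1000 nt wide the numbers were 463 of 479 for FOS and 815 of 858 for ATF3, so that 16 and 43 wide intervals of like score, these genes included, had no counterpart. The reverse direction was alike. In the knockdown list, 92.9% of score class 9 and 92.3% of class 10, the highest, overlapped the CSE list. High-scoring intervals without a counterpart were thus not particular to the CSE list.

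**Figure D2:**
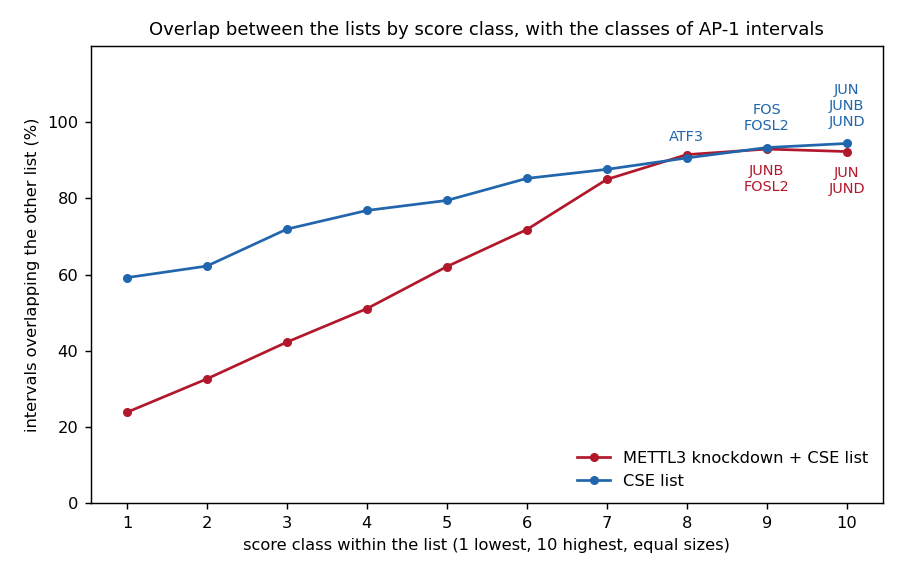
Share of intervals in percent that overlap the other list, for 10 score classes of equal size within the knockdown list (red) and the CSE list (blue), with the classes that hold the AP-1 intervals. In the CSE list FOS lies in class 9, where 93.3% overlapped, and ATF3 in class 8, where 90.6% did.

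The AP-1 intervals were high in score within each list. In the knockdown list 2 of the 4 lay in the highest of 10 score classes and the other 2 in class 9. In the CSE list the JUN genes lay in class 10, FOS and FOSL2 in class 9 and ATF3 in class 8. They were also wide, apart from FOSL2. The 3 JUN intervals were wider than 90.4% to 97.6% of the knockdown list and than 88.5% to 97.3% of the CSE list, whereas FOSL2 was wider than 54.5% of the knockdown list and 46.8% of the CSE list. The median width was 218 nt in the knockdown list and 285 nt in the CSE list.

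**Figure D3:**
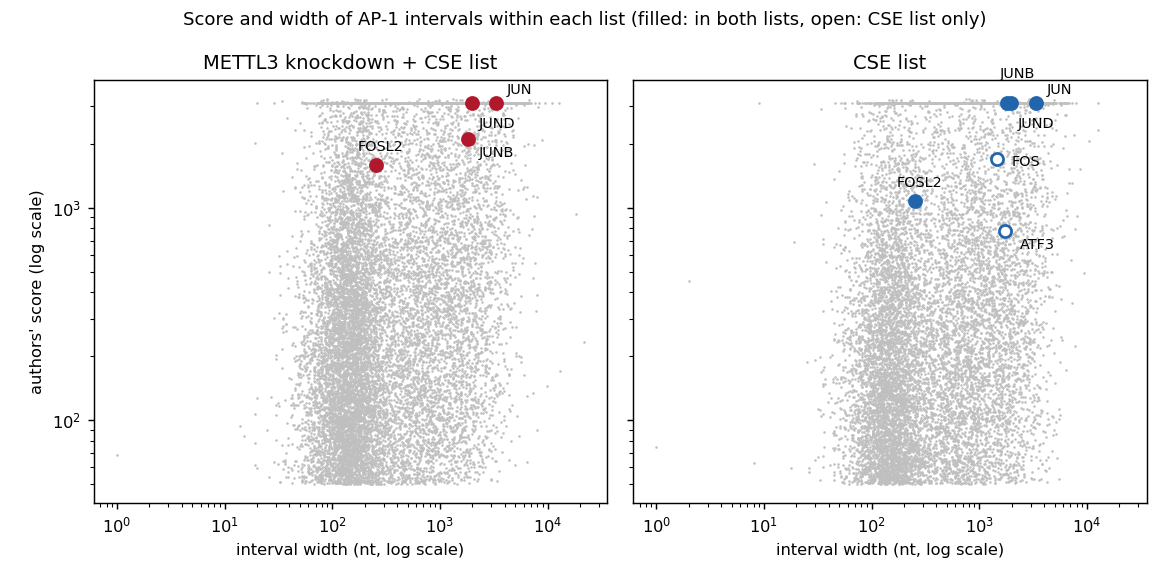
Authors' score against interval width in nt, both on log scales, for all intervals (grey) of the knockdown list (left) and the CSE list (right), with AP-1 intervals as circles, filled where both lists hold the interval and open where only the CSE list does. All AP-1 intervals lie in the upper part of their list, and FOSL2 is the 1 narrow interval among them.

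Absence from the knockdown list was examined in the surroundings of FOS and ATF3. On either side of the FOS interval, the nearest listed knockdown intervals of either strand were 153707 and 146122 nt away. The interval names carry running numbers, and 3 numbers were unlisted between these flanking intervals, so calls there that were not listed cannot be told apart from no call. Unlisted numbers were common in both lists and are not particular to these genes. The highest running number was 48847 for 13691 knockdown intervals and 49879 for 11038 CSE intervals. For ATF3 the flanking knockdown intervals were 517961 and 117170 nt away, with 11 unlisted numbers between them. Within 250 kb of the FOS window 5 of 7 other knockdown intervals and 5 of 6 other CSE intervals overlapped the other list. Over the whole lists 64.5% of knockdown intervals and 80.1% of CSE intervals did. Within 250 kb of the ATF3 window there were 2 other knockdown intervals, both knockdown-only, and 0 in CSE.

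FOSL1 was bordered in both lists by an interval on its own strand 15303 nt from its window (chr11:65684304-65685831), which scored 3100 in the knockdown list and 312.01 in the CSE list. Between the flanking intervals of either strand 4 numbers were unlisted with knockdown and 11 in CSE. Around FOSL2 no other interval was listed within 250 kb in either condition, so its 252 nt interval stood alone. Over the 7 windows, 17 of 32 surrounding knockdown intervals and 17 of 23 surrounding CSE intervals overlapped the other list. The shares over the whole lists were 64.5% and 80.1%.

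The widths of the intervals were set beside exon lengths of these genes, by length alone because the annotation is of another build. FOSL2 was equal to an exon, FOS and JUNB were within 4 nt of one, and JUND, JUN and ATF3 were 100, 217 and 312 nt from the nearest. The ATF3 interval of 1732 nt equalled no exon of the protein-coding transcripts. It equalled a genomic span that was looked for after its width was seen. The span runs from the start of the last exon of a short ATF3 transcript (221 nt) to the end of the last exon of the longest transcript (1420 nt). The 1420 nt exon starts 312 nt after the start of the 221 nt exon. The span thus also holds bases between them that belong to neither of these exons. The FOS interval exceeded the last exon of FOS by 4 nt (1452 and 1448 nt), and the JUNB interval was 4 nt shorter than its only exon of 1820 nt. JUND exceeded its exon of 1863 nt by 100 nt, and JUN was 217 nt shorter than its exon of 3540 nt. JUN, JUNB and JUND have a single exon in these transcripts, and their intervals are longer than the coding sequences of 996, 1044 and 1044 nt with stop codon, so the lists do not resolve where m6A lies within them.

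**Figure D4:**
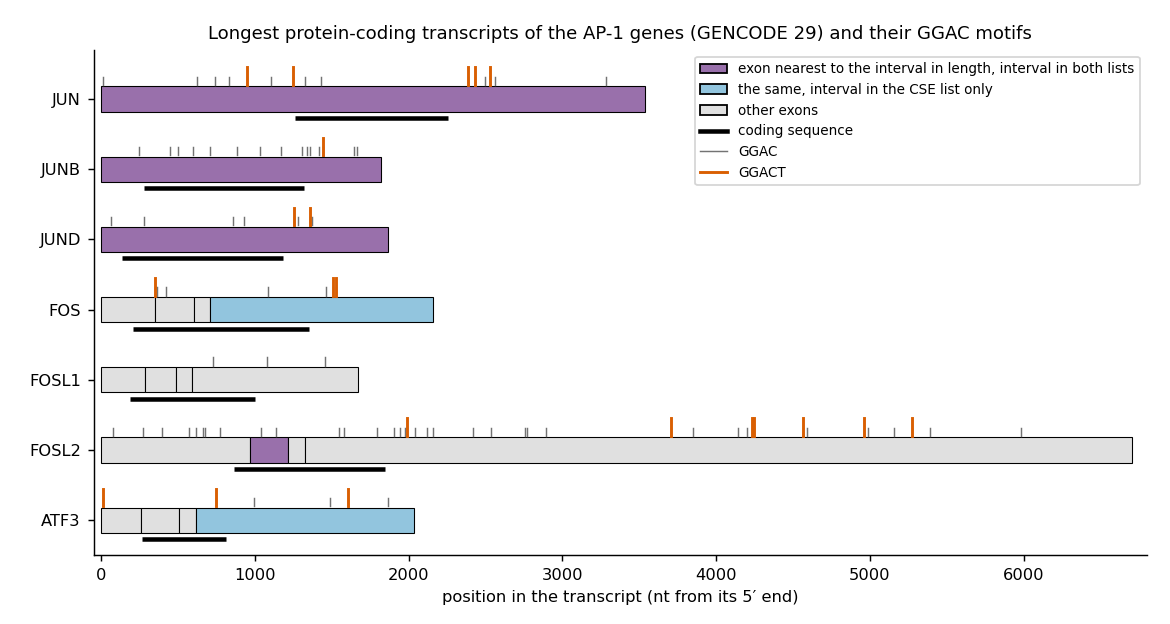
Longest protein-coding transcript of each gene in nt from its 5′ end, with exons as boxes, the coding sequence as a black bar, and GGAC and GGACT motifs as ticks. Purple marks the exon nearest in length to an interval of both lists and blue that of an interval of the CSE list only. In FOSL2 all 7 GGACT motifs lie in the last exon, and exon 2, equal in length to the interval, holds 0.

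GGAC motifs were densest in the transcripts of the 4 genes listed in both conditions, given here for 7 genes as a description with no test. JUNB had 15 GGAC motifs in 1820 nt, or 8.24 per kb, more than 95.3% of 19702 protein-coding genes, whose median was 3.77 per kb. FOSL2 had 5.81 per kb, JUND 4.29 and JUN 4.24, more than 79%, 59% and 58% of genes, so JUND and JUN lay near the middle. The genes listed only in CSE had fewer, FOS 3.24 and ATF3 2.95 per kb, more than 40% and 34% of genes. FOSL1, listed in neither, had 3 motifs or 1.80 per kb, more than 11% of genes. The order by GGAC was not kept with the longer motif GGACT, each copy of which also counts as a GGAC. For GGACT, ATF3 had 1.48, JUN 1.41, FOS 1.39, JUND 1.07, FOSL2 1.04 and JUNB 0.55 per kb, beside a median of 0.93 over all genes. GGAC alone occurred in 99.0% of genes, so its presence does not set a gene apart.

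Within genes of several exons, the exon nearest in length to the interval was not always the one with most motifs. In FOSL2 the last exon of 5383 nt held 29 GGAC and all 7 GGACT motifs of the transcript, while exon 2, equal in length to the interval of both lists, held 2 GGAC and 0 GGACT. The lists were not placed on these exons by position. In FOS the last exon held 4 of 7 GGAC and 2 of 3 GGACT. In ATF3 it held 5 of 6 GGAC and 2 of 3 GGACT, the coding one printed above among them.

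The lists hold no expression values, and each library is bulk RNA. A lower transcript level of FOS or ATF3 with knockdown therefore cannot be told apart from less m6A on each transcript, nor fewer cells with such transcripts from less RNA per cell.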

How the data were processed

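Per the labels' protocols, poly(A) RNA was precipitated with an m6A antibody and sequenced beside input RNA, with directional libraries. The submitters' processing notes name HISAT2 2.0.4 and the build hg19. The deposited files are 1 interval list for each of the 2 conditions, with 6 columns and no header. The score in each list is the authors' value for a deposited interval, on a scale that is not stated. Interval names start with MACS, and no version or setting of that peak caller is stated. The design text names 3 replicates per condition, and whether they were pooled is not stated. Read depths were not used here.

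Intervals were assigned to genes by hg19 windows and compared by overlap of at least 1 bp on the same strand, positions counting from 1. Exact (Clopper-Pearson) 95% intervals and a limit of 3 counts for a count of 0 cover counting error only (SciPy 1.17.1, Python 3.11.15). The overlap routine was tested on simulated data. Exon lengths and motifs (sense strand only) came from GENCODE 29, of another build, so no position was carried over. The members and lists were chosen with earlier results of these data known, and the 200 nt stretch after the stop codon after seeing the sites. All 7 genes were named with every interval. Other AP-1 pathway genes were not analysed here, since no hg19 annotation was used. Alternatives were other overlap rules, minimum scores, window borders and strands, and the motif GGACT.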

Additional observations from a re-analysis of the deposited data

How the results depend on the processing

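Of 35 values under alternatives, 34 stayed within counting error or within 1.5 times the reported value, 1 moved and 0 reversed. The numbers of AP-1 intervals (4 with knockdown, 6 in CSE), their covered lengths and their overlapping shares (100.0% and 66.7%) were identical for intervals above the median score (the upper 50%) of each list, at scores of at least 100, with intervals wholly inside the windows, with windows widened by 1 kb and on both strands. The lowest AP-1 score, 775.35 for ATF3 in CSE, lies above 100 and above the list medians of 280.12 (knockdown) and 223.765 (CSE). The score settings therefore could not remove a member. The shares were also identical under 50% reciprocal overlap and identical borders, which the identical borders of the 4 shared intervals had already fixed. These settings are thus no check of how stable the values are. The median motif count per kb over the 7 transcripts moved with the motif by construction, to 1.07 for GGACT, beside 4.24 for GGAC. No paired analysis was possible because each condition had 1 list. With 4 and 6 intervals, shares are known only within wide counting intervals. Read depths were not used here, and how the listed intervals were selected is not stated.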
